A study of Mus musculus with 6 samples.

Results

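Signatures with a level of 10 CPM or more in every liver library that were also counted, but weakly or unevenly, in the fibroblast line BLK.CL4 are described here. A signature is the 20-base tag that massively parallel signature sequencing (MPSS) reads from a cDNA, and CPM is its bead count per 1000000 counts of its library. Members were chosen by their liver and BLK.CL4 levels: they had to reach 10 CPM in all 3 liver libraries, to have a count above 0 in at least 1 BLK.CL4 library, and to stay under 10 CPM in at least 1 BLK.CL4 library. This rule was met by 424 of the 69349 signatures in the series, and by 22.3% of the 1904 liver signatures, meaning those that reached 10 CPM in each liver library. The number depends on the liver libraries, most on replicate 1. Leaving one out can only add members, and the rule gave 735, 619 and 512 without liver replicates 1, 2 and 3. Of the other liver signatures, 535 were never counted in BLK.CL4 and 945 reached 10 CPM in all 6 libraries.

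The series holds 3 libraries of BLK.CL4, an embryonic fibroblast line of C57BL/6 mice, and 3 of mouse liver. The labels give total RNA and the strain C57BL6 for all 6 libraries, with no treatment, genotype, age or sex, and do not tie the libraries to cultures or animals. Spread between libraries may therefore be technical. Library totals were 1890287, 2051367 and 2187783 counts in BLK.CL4 replicates 1, 2 and 3, and 1724799, 2004290 and 2440849 counts in liver replicates 1, 2 and 3, so that 3 counts stood for 1.23 to 1.74 CPM. Liver replicate 1 stood apart in listing 8621 signatures, against 17721 and 14332 in replicates 2 and 3, and BLK.CL4 replicate 2 in listing 31506, against 19686 and 23955 in replicates 1 and 3. The labelled sources could not be set against marker genes, because signatures were not assigned to genes.

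In MPSS, cDNA is cut with DpnII, which recognises GATC, and the bases next to the cut nearest the poly(A) tail are cloned onto beads and read. A transcript is thus usually represented by a single signature, and its bead count follows its share of the messenger RNA. Liver is dominated by hepatocytes, which make plasma proteins and metabolic enzymes from very abundant messages. Fibroblasts make extracellular matrix and share with liver the messages that every cell uses. In whole tissue, fewer cells of a type and less RNA per cell cannot be told apart.

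The signatures that carry the description are printed 5′ to 3′, with the DpnII site in capitals. L1 to L6 are the 6 members most abundant in liver, and L1 alone held 39.5% of all liver counts of members.
L1: GATCcctggtggaaaggcgg
L2: GATCtgcattccatcctgtc
L3: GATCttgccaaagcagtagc
L4: GATCttccaggcccgcctca
L5: GATCtgctctccacctgtct
L6: GATCttccaggcccgcctcc
F1 to F4 are the 4 members most abundant in BLK.CL4.
F1: GATCcacatctctaacaaat
F2: GATCtctccatatcaagcaa
F3: GATCccagactggttcctta
F4: GATCaaacaacccaacaaga
H2 to H4 had, after L1, the highest ratios of liver to BLK.CL4 level among the 174 members counted in all 3 BLK.CL4 libraries.
H2: GATCttgtctgtggactgtt
H3: GATCtgactctgtcttctgg
H4: GATCactgtgttggacactc
W1 to W4 had the lowest ratios among those 174 members.
W1: GATCccaaactgaggcagca
W2: GATCcttgcaataccctgtt
W3: GATCcctattgcttgtgctt
W4: GATCgtcctccgcagctatg

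Together the members made up a large part of liver messages and a minute part of BLK.CL4 messages. Their part of the library total was 45.9%, 37.6% and 39.6% in liver replicates 1, 2 and 3, a mean of 41.0% ± 4.32 (SD, n = 3). In BLK.CL4 it was 0.735%, 0.717% and 0.628%, a mean of 0.694% ± 0.0575 (SD, n = 3). Both levels belong to the rule that chose the members, so these shares, like the levels and ratios that follow, are a description with no test.

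The BLK.CL4 counts were uneven between libraries. Of the 424 members, 174 were counted in all 3 BLK.CL4 libraries, 127 in 2 and 123 in only 1. Those counted in 1 library were found in replicate 2 in 67 cases, in replicate 1 in 27 and in replicate 3 in 29. Weak is not an apt name for all of them: 281 members reached 10 CPM in at least 1 BLK.CL4 library, 26 reached 100 CPM there, and 143 stayed under 10 CPM in all 3. At the other end, 51 members had only 1 to 3 BLK.CL4 counts in all, and 72 were seen in a single one of the 12 BLK.CL4 runs. The library with the highest BLK.CL4 level held a median of 77.5% of the summed CPM of a member.

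The mean level of a member ran from 13.7 to 164845 CPM in liver, with a median of 67.5 CPM, and from 0.152 to 311 CPM in BLK.CL4, with a median of 9.13 CPM. The ratio of mean liver to mean BLK.CL4 CPM had a median of 9.77, and the quartiles lay at 2.38 and 58.5. It exceeded 10 in 209 members, 100 in 90 and 1000 in 40. In 25 members the mean was higher in BLK.CL4 than in liver. The ratio depends on the scale: with TMM factors, which correct library totals for the few very abundant liver messages, the median was 26.4 and only 2 members had the higher mean in BLK.CL4.

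Members more abundant in liver were not more abundant in BLK.CL4. Across the 424 members the rank correlation of the mean levels was -0.20, and across all 1904 liver signatures it was 0.039 (Spearman; signatures share libraries and are not replicates, so no p is given). Among the 174 members counted in all 3 BLK.CL4 libraries it was 0.0061. The median BLK.CL4 level was 13.5 CPM in the 82 members with 10 to 30 CPM in liver, 8.75 CPM in the 183 with 30 to 100, and 10.2 CPM in the 85 with 100 to 300. It was 5.88 CPM in the 40 members with 300 to 1000 CPM in liver and 0.906 CPM in the 34 with 1000 CPM or more. The median ratio increased with the liver level, at 1.88, 6.38, 15.2, 88.1 and 3849 from the lowest class to the highest. Such a rise is largely built in, because the liver level defines the classes and is the numerator of the ratio.

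**Figure D1:**
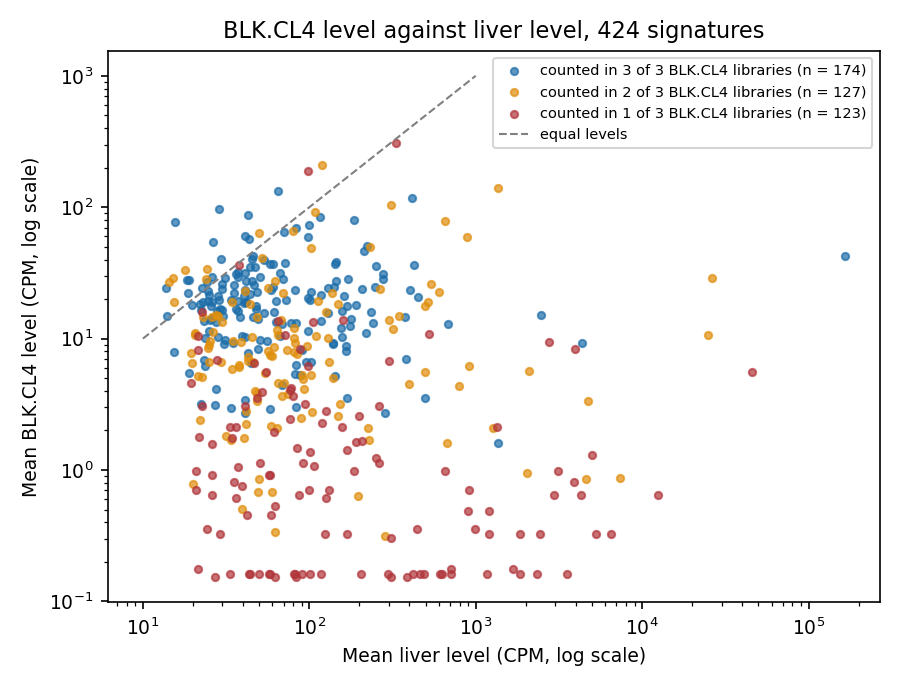
Mean BLK.CL4 level against mean liver level (CPM, both axes logarithmic) for the 424 members; each point is a signature, coloured by the number of BLK.CL4 libraries that counted it, and the dashed line marks equal levels. Most points lie below the line, 25 lie above it, and the points at 1000 CPM or more in liver are mostly those counted in 1 library.

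The members thinned out in the number of BLK.CL4 libraries as the liver level rose. In the lowest class, 41 of 82 members were counted in all 3 BLK.CL4 libraries, and in the highest class 4 of 34 were. Totals of 1 to 3 BLK.CL4 counts were found for 4 of 82 members in the lowest class and 11 of 34 in the highest. Within a class, the rank correlation of liver and BLK.CL4 level lay between -0.17 and 0.0084 in the 4 lower classes and was 0.32 in the highest (n = 34).

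Seen against all liver signatures, a smaller share was counted in BLK.CL4 where the liver level was high. Of the 252 liver signatures with 10 to 30 CPM, 78.6% had a count in at least 1 BLK.CL4 library, and 32.5% were members. Of the 112 with 1000 CPM or more, 63.4% had a BLK.CL4 count and 30.4% were members. The intermediate classes stood at 75.4%, 68.5% and 63.5%, with 22.4%, 17.3% and 17.4% members. The difference between the highest and the lowest class was -15.2 percentage points, -28.9 without BLK.CL4 replicate 2 and -8.46 without liver replicate 1, so that its size rests on these libraries.

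**Figure D2:**
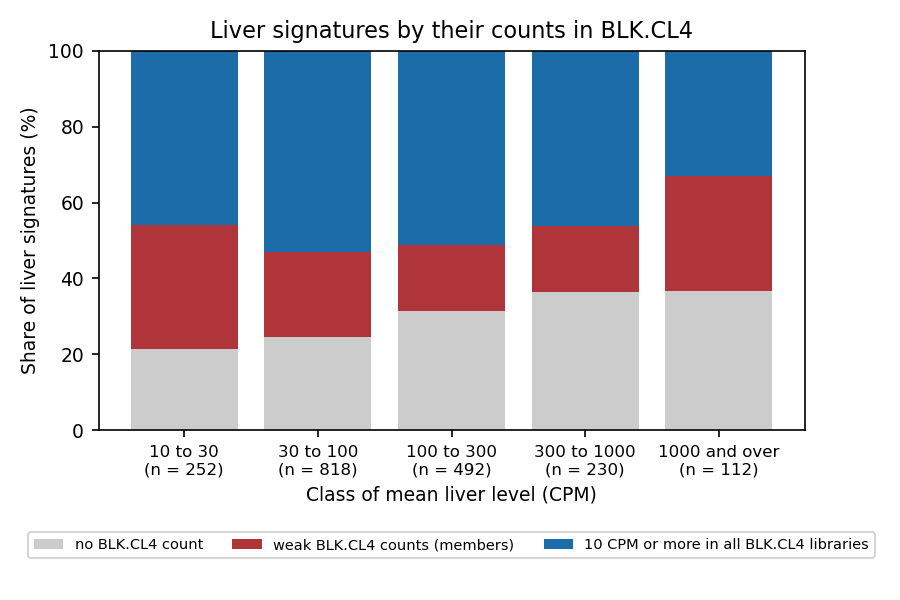
Share of liver signatures (%, vertical axis) with no BLK.CL4 count, with weak counts (the members) and with 10 CPM or more in all BLK.CL4 libraries, by class of mean liver level (CPM, horizontal axis; n is the number of liver signatures). The share with no count was 21.4% in the lowest class and 36.6% in the highest.

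The most abundant members differed from each other by orders of magnitude in BLK.CL4. L1 stood at 211914, 143248 and 139373 CPM in liver replicates 1, 2 and 3, and had 104, 141 and 9 counts in BLK.CL4 replicates 1, 2 and 3. Its mean ratio was 3868, and the BLK.CL4 level of replicate 3, 4.11 CPM, lay far below the 55.0 and 68.7 CPM of replicates 1 and 2. L2 was the steadiest in liver, at 46062, 46144 and 45288 CPM, yet its BLK.CL4 counts were 0, 34 and 0. L3 stood at 27748, 24578 and 26172 CPM in liver and had 0, 73 and 113 BLK.CL4 counts.

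L4 stood at 26684, 23421 and 24127 CPM in liver, with 22, 42 and 0 BLK.CL4 counts. L3 and L4, which were nearly level in liver, thus had their 0 in different BLK.CL4 libraries. L5 stood at 15226, 10636 and 11446 CPM in liver and had 4 BLK.CL4 counts, all in replicate 2, which gives a ratio of 19133 with a counting interval of 7473 to 70220 (95%, exact Poisson on the BLK.CL4 counts). L6 was uneven in liver, at 1263, 10702 and 10029 CPM, and had 4, 1 and 0 BLK.CL4 counts. Of its 48107 liver counts, 35750 (74.3%) came from 2 TH runs, 16017 from TH run 1 of replicate 2 and 19733 from TH run 1 of replicate 3. In those runs L4, which differs from L6 in its last base, had only 2059 and 574 counts. Without them L6 stood at 1263, 3730 and 2574 CPM, a mean of 2522 ± 1234 CPM (SD, n = 3) in place of 7331 ± 5266. For members with so few counts, the intervals cover counting error only and leave out the spread between libraries.

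The members with the most BLK.CL4 counts owed them to 1 or 2 libraries. F1 had 1761 counts in BLK.CL4 replicate 1 and none in replicates 2 and 3, and stood at 459, 117 and 415 CPM in liver. Liver averaged 330 ± 186 CPM and BLK.CL4 311 ± 538 CPM (SD, n = 3 each), so that the mean ratio of 1.06 matches no single BLK.CL4 library. All its counts lay in TH runs, 1 of the 2 types of sequencing run. F3 had 1242 counts in BLK.CL4 replicate 3 and none in replicates 1 and 2, against 82.9, 14.0 and 196 CPM in liver, and all its counts lay in T runs, the other type.

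F2 had 404, 0 and 902 BLK.CL4 counts and stood at 101, 65.4 and 189 CPM in liver. F4 had 247, 599 and 0 BLK.CL4 counts and stood at 786, 3007 and 278 CPM in liver. Each of F1 to F4 was at 0 in at least 1 BLK.CL4 library and above 100 CPM in another.

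H2 to H4 were low in all 3 BLK.CL4 libraries and high in all liver libraries, with no overlap. H2 had 2, 2 and 6 BLK.CL4 counts and 921, 1736 and 1443 CPM in liver, a ratio of 859. H3 had 9, 45 and 2 BLK.CL4 counts and 4848, 3510 and 4699 CPM in liver, a ratio of 473. H4 had 19, 15 and 62 BLK.CL4 counts and 2353, 1277 and 3791 CPM in liver, a ratio of 162. The BLK.CL4 library with the most counts was replicate 3 for H2 and H4 and replicate 2 for H3.

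W1 to W4 were members only through 1 BLK.CL4 library each. W1 had BLK.CL4 levels of 89.9, 132 and 9.60 CPM and was at 11.0, 22.0 and 13.9 CPM in liver, a ratio of 0.203. W2 had BLK.CL4 levels of 181, 6.82 and 105 CPM and was at 21.5, 22.0 and 42.6 CPM in liver. W3 was at 117, 36.6 and 9.60 CPM in BLK.CL4 and W4 at 136, 118 and 9.14 CPM, with liver means of 26.2 ± 4.69 and 42.9 ± 26.0 CPM (SD, n = 3). W1, W3 and W4 fell under 10 CPM in replicate 3 and W2 in replicate 2, and the levels of both groups overlapped in each.

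**Figure D3:**
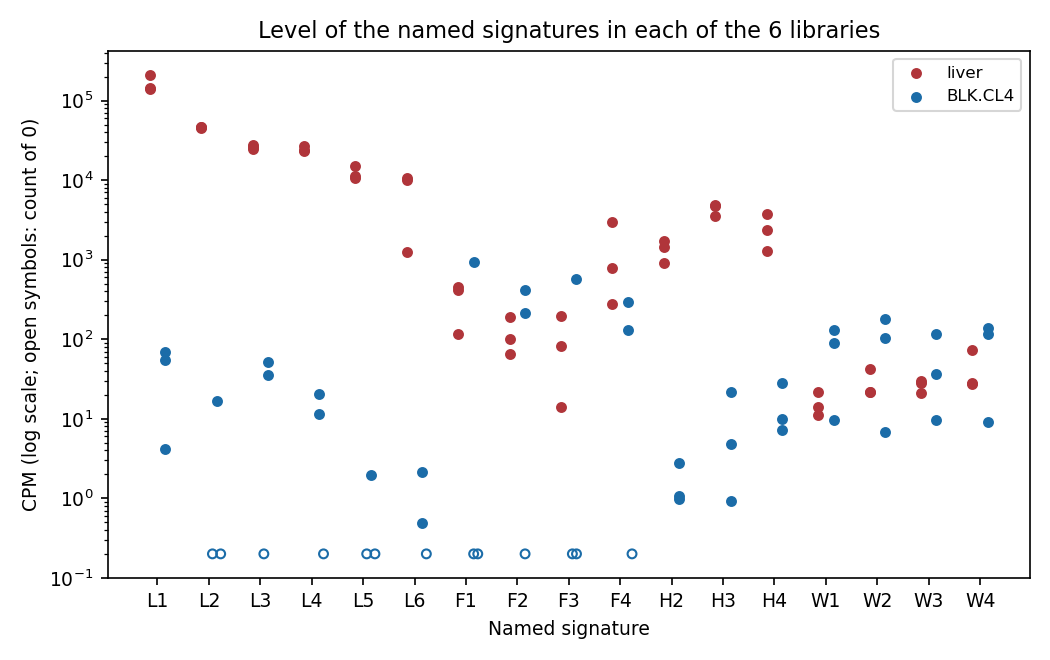
Level of each named signature in the 3 liver and 3 BLK.CL4 libraries (CPM, logarithmic axis; a point is a library, open symbols mark a count of 0 and are drawn below the scale of the data). L1 to L6 and H2 to H4 lie apart between the groups, W1 to W4 overlap, and F1 to F4 spread from 0 to above 100 CPM in BLK.CL4.

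Every liver library lay above every BLK.CL4 library in 275 of the 424 members, while the groups overlapped in 149. For the 143 members under 10 CPM in every BLK.CL4 library, the rule itself set this order. These counts use CPM by library totals. With TMM factors every liver library was above in 364 members. The share over all signatures was not computed with these factors, so nothing is read from the 364. By library totals, the same order held for 12.3% of the 9115 signatures with at least 10 CPM in 2 or more libraries. In the edgeR quasi-likelihood test over those 9115 signatures, 229 members passed as higher in liver at a Benjamini-Hochberg adjusted p of 0.05 and 195 did not pass, against 14.9% of all signatures tested that were higher in liver. In BLK.CL4, 15.1% of all signatures tested were higher. No member was higher there by edgeR, and neither at an unadjusted p of 0.05 (0 members) nor with DESeq2 (0 members). Because the rule used this contrast, nothing is read from these counts. Among the 143 members under 10 CPM in every BLK.CL4 library, 135 passed. Their selection alone set every liver library above every BLK.CL4 library, so nothing is read from this count either. The fit gave a median log2 fold change of 4.72 over the members and -0.67 over all signatures tested. In T runs alone 128 of 303 members tested passed, against 9.48% of the 7508 signatures tested there.

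At the edges of the rule, members and other signatures were alike in level. Just inside the liver threshold, GATCcccctgcctctcaagt stood at 36.5, 30.9 and 10.2 CPM in liver, and GATCaaccctcctaactgga at 19.7, 12.0 and 10.2 CPM. Just outside it, GATCacgacgacgcccacgc had 16.2, 9.98 and 20.5 CPM, and GATCactgagccgtgttggt had 30.1, 9.98 and 15.6 CPM. Just inside the BLK.CL4 threshold, GATCactggggagaagttat had 21.7, 9.75 and 57.1 CPM in BLK.CL4, and GATCttactccagcctggca had 14.8, 28.8 and 9.60 CPM. Just outside it, GATCagcttttctgtttatt had 10.1, 38.5 and 12.8 CPM, and GATCggctcatcatctgtgt had 10.1, 16.6 and 26.1 CPM.

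More of the members most abundant in liver were counted in BLK.CL4 replicate 2 than in the other BLK.CL4 libraries, and there mostly in T runs. Of the 34 members with 1000 CPM or more in liver, 30 were counted in BLK.CL4 replicate 2, 11 in replicate 1 and 10 in replicate 3. Each of the T runs of replicate 2 counted 18 of the 34, whereas the other 10 BLK.CL4 runs counted 3 to 9. In 15 of the 34, all BLK.CL4 counts lay in these T runs. Members with 10 to 30 CPM in liver showed no such run. Of these 82, the T runs of replicate 2 counted 38 and 39, the other runs 29 to 44, and 2 were counted in these T runs alone. The classes differ in their counts, however: 11 of the 34 but only 4 of the 82 had 1 to 3 BLK.CL4 counts in all. So few counts fall within 2 runs more easily.

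The T runs of replicate 2 held 897 of the 1800 BLK.CL4 counts of these 34 members (49.8%) and 17.8% of all BLK.CL4 counts. Of the 897 counts, 524 belonged to F4 in a single run. Without F4 the share was 39.1%, and without F4 and L1 it was 36.0%. Without F4 and L1, replicates 1, 2 and 3 held 118, 340 and 242 of the remaining 700 counts. Per the labels, these T runs were made on December 11, a day that also held liver runs, as did December 9 for 3 runs of BLK.CL4 replicate 1. Those 3 runs counted 3 to 6 of the 34 members, and the 7 runs on days without liver runs counted 5 to 9. By counts, the runs on days with liver runs, these T runs included, held 71.7% of those of the 34 members. That share was 54.5% without F4 and 46.1% without F4 and L1, against 39.5% of all BLK.CL4 counts. The part that the run day or the larger number of signatures in replicate 2 has in this was not tested.

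**Figure D4:**
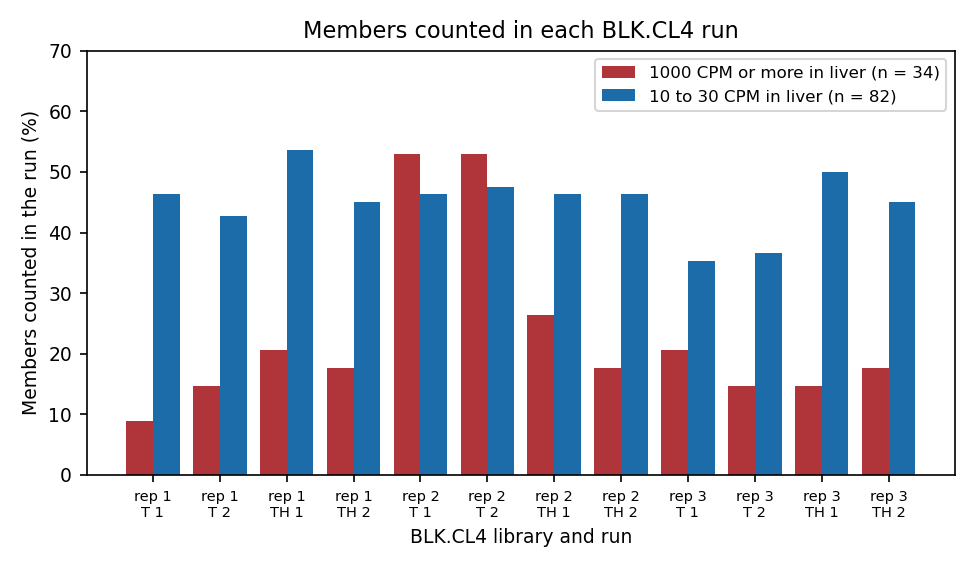
Share of members counted in each of the 12 BLK.CL4 runs (%, vertical axis), for the 34 members with 1000 CPM or more in liver and the 82 with 10 to 30 CPM; runs are named by library, run type and number. The 2 T runs of replicate 2 counted 18 of the 34 abundant members each, and no other run counted more than 9.

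The run type, which the rule did not use, divided the members in the same way in both sources. In liver, 91 members (21.5%) had no count in T runs and 45 (10.6%) had none in TH runs, against 19.7% and 12.1% of all 1904 liver signatures. Of those 91 members, 77 had no T count in BLK.CL4 either, and of those 45, 42 had no TH count there. Over all members, 26.2% had no T count and 26.4% no TH count in BLK.CL4. Among the 293 members with at least 20 BLK.CL4 counts, the T share of the liver counts and that of the BLK.CL4 counts correlated at r = 0.92 (Spearman 0.93). Both shares come from the same pair of run types, and no p is given.

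Of these 293 members, 74 had at most 10% of their counts in T runs in both sources and 39 had at least 90% in both. No member was at most 10% in one source and at least 90% in the other. H4, with 3538 T and 12333 TH counts in liver, had 0 T and 96 TH counts in BLK.CL4. F4, with 8021 T and 40 TH counts in liver, had 771 and 75 in BLK.CL4. Summed over members, the T share was 46.8% ± 1.63 for liver and 46.0% ± 11.1 for BLK.CL4 (SD, n = 3 each), a difference of 0.794 percentage points (exact two-sided permutation test, p = 1, where the smallest possible with 3 against 3 libraries is 0.1). BLK.CL4 replicate 1 was low, at 33.1% against 51.9% and 52.9% in replicates 2 and 3, and without it the difference was -5.63 points.

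**Figure D5:**
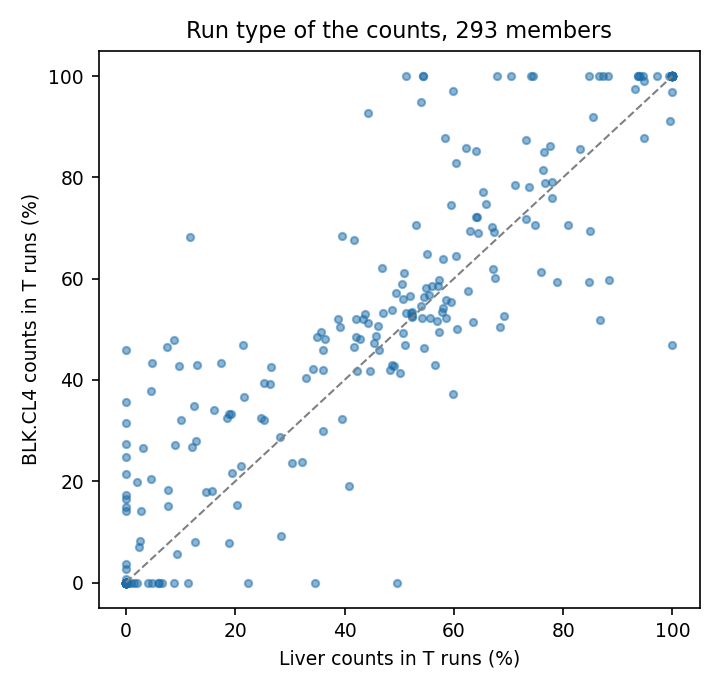
Share of BLK.CL4 counts in T runs (%, vertical axis) against the share of liver counts in T runs (%, horizontal axis) for the 293 members with at least 20 BLK.CL4 counts; a point is a signature and the dashed line marks equal shares. Points gather at both ends of the line, where 74 members were at most 10% and 39 at least 90% in both sources.

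The members were close to all liver signatures in G and C content. The 16 bases after the DpnII site held 49.2% ± 12.8 G and C (SD over 424 members), against 50.4% ± 12.8 over all 1904 liver signatures. A CG dinucleotide occurred in 115 members (27.1%), in 32.1% of all liver signatures, in 29.2% of the liver signatures without a BLK.CL4 count, and in 36.1% of those with 10 CPM or more in all 6 libraries. The poly(A) signal letters AATAAA, searched on the strand read, occurred in 1 member (0.236%) and in 0.315% of all liver signatures, and a run of AAAA in 4.95% and 5.20%. Palindromes of 4 bases that begin at base 3, 7, 11 or 15 of the signature occurred in 8.25% of members and 9.45% of liver signatures. For bases 4, 8, 12 and 16 these shares were 7.08% and 7.72%. The liver level was about as even between libraries as in the other liver signatures: the highest liver library was a median of 2.64 times the lowest in members, 2.60 times in signatures without a BLK.CL4 count and 2.84 times in those of all 6 libraries.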

How the data were processed

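Per the file headers, the files the authors deposited hold unscaled bead counts per signature and run, with 4 runs per library (2 of type T, 2 of type TH). Base calling and filters are not given in the sources used here. Per the labels, cDNA was cut with DpnII and signatures of 20 bases were cloned. Runs were summed per library, and a signature not listed was set to 0. Libraries were grouped by their labelled source and numbered in the order of listing. CPM used library totals. A test with edgeR 4.0.16 (R 4.3.3, glmQLFTest, TMM, group as the only term) covered signatures that reached 10 CPM in 2 or more libraries, after a check on simulated data. That check changed only well-counted signatures, and by a large factor, so it does not show how the test recovers changes at low counts. DESeq2 1.42.0 was an alternative. Python 3.11.15, pandas 2.3.3 and scipy 1.17.1 did the rest. Alternatives changed the CPM minimum, the scaling, the run types and the libraries used. Named signatures are the 6 members highest in liver, the 4 highest in BLK.CL4, the 4 highest and 4 lowest in ratio among those counted in all BLK.CL4 libraries, and the 2 on each side of each threshold. The members, classes and lists were chosen with earlier results of these data known. Signatures were not assigned to genes, since no transcript sequence was used here.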

Additional observations from a re-analysis of the deposited data

How the results depend on the processing

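The rule gave 284 to 484 members under the other CPM minimums (5 and 20), with T or TH runs only and with signatures counted in at least 2 runs, and 302 to 735 with 1 library left out, the 735 without liver replicate 1. The median ratio was 26.4 with TMM factors and 11.9 at a minimum of 20 CPM, and 8.45 to 13.0 with 1 library left out. The rank correlation of liver and BLK.CL4 level all but vanished, at 0.0061, among members counted in all 3 BLK.CL4 libraries. Over all members it was -0.21 to -0.16 with 1 library left out. The gap between the highest and lowest liver class in the share counted in BLK.CL4 was -28.9 to -8.46 percentage points with 1 library left out. The difference in T share between the groups changed sign to -3.06 points as the median over members, and was -5.63 to 4.25 with 1 library left out. In T runs alone 128 of 303 members tested passed as higher in liver, against 229 of 424, and 183 to 214 did with 1 library left out. Without F4 the share of counts in T runs of BLK.CL4 replicate 2 was 39.1%, and without L1 and F4 it was 36.0%. Without the 2 runs that held most of its counts, L6 averaged 2522 CPM in liver. These 3 alternatives were chosen after seeing the data. For these values the cause was not tested. No paired analysis was possible because the labels number no libraries and do not settle which share a letter of the library code. Levels below 1.23 to 1.74 CPM in a single library rest on under 3 counts.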

Other observations

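Some abundant members came with a second member that differed by 1 base near the end of the signature. The pair L4 and L6 differed by A20C (positions counted from 1 at the first base, with the base of the more abundant signature first), at mean liver levels of 24744 and 7331 CPM. The summed level of the pair lay between 25141 and 37971 CPM in all 12 liver runs. L4 was the higher of the pair in 10 of these runs, and L6 in TH run 1 of liver replicates 2 and 3, at 29236 and 33070 CPM against 3758 and 962 CPM for L4. L1 had a partner at G20T, GATCcctggtggaaaggcgt, at 124 CPM in liver, which was counted in 6 of 12 liver runs. L3 had a partner at G19A, GATCttgccaaagcagtaac, at 308 CPM in liver, where 1200 of its 1872 counts came from 1 T run of replicate 2.

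A neighbour at 1 base difference with at least 10 times the mean liver level was found for 19 of 424 members (4.48%), and in 13 of these the difference lay at position 19 or 20. Among liver signatures without a BLK.CL4 count, 89 of 535 (16.6%) had such a neighbour, and among those with 10 CPM or more in all 6 libraries 6 of 945 (0.635%). In BLK.CL4, 37 members (8.73%) had a neighbour at 10 times their own BLK.CL4 level or more, 27 of them at position 19 or 20. Members were chosen for low BLK.CL4 levels, so this can rest on few counts, and it was not computed for the other lists. A neighbour at 10 CPM or more in BLK.CL4 was found for 14.9% of members. That share was 7.10% in liver signatures without a BLK.CL4 count and 28.9% in those of all 6 libraries. Whether miscalled bases had a part in this was not tested.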
